A study of Mus musculus with 8 samples.

Results

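Regions occupied by NANOG alone, by BRG1 alone or by both proteins were compared in mouse embryonic fibroblasts reprogrammed with wild-type Nanog and Oct4 (NanogWT). The comparison used 2 of the 8 peak lists of the series, one made with an antibody against the FLAG tag on NANOG and one made with an antibody against BRG1. The FLAG list held 58940 peaks and the BRG1 list 30859. Peaks that overlapped or touched were merged into 63510 regions. A region with peaks of both lists was called joint, and there were 25726 of these. A further 32963 regions were FLAG-only and 4821 were BRG1-only.

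The method was CUT&Tag, in which an antibody tethers a transposase to its target and nearby DNA is cut and tagged for sequencing. The fibroblasts (MEFs) carried an Oct4-GFP reporter, came from OG2 crosses and were infected with retroviruses for Oct4 and for FLAG-tagged Nanog, so the FLAG antibody detects the introduced protein and not native NANOG. Cells were collected at day 5. Each target was also mapped in a second arm, in which the Nanog protein carried the BRG1-interacting domain of SS18 at its start (NanogBiD), and both arms had lists for the histone marks H3K27ac and H3K4me1. No library without the FLAG tag and no control antibody is among the groups compared. Every group had 1 deposited library. The study's sources differ on whether this library pools replicates or comes from an experiment performed once. They list the NanogWT FLAG library with the fewest read pairs of the 8, well below the NanogWT BRG1 library, although its peak list is the longer of the pair. A missed FLAG peak and an absent one cannot be told apart, which bears on every BRG1-only region. No spread between replicates can therefore be given, and the 95% intervals below cover counting error only. Neighbouring regions are not independent, so the intervals are narrower than the true uncertainty.

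NANOG is a homeodomain transcription factor that helps to hold embryonic stem cells in the pluripotent state and shares many of its targets there with OCT4 and SOX2. BRG1, encoded by Smarca4, is the ATPase of the BAF complexes, which slide or evict nucleosomes and keep enhancers and promoters accessible. BRG1 does not read a long DNA sequence of its own and is brought to chromatin by transcription factors and by modified histones. H3K27ac marks active promoters and enhancers, whereas H3K4me1 is spread over both active and inactive enhancers. In fibroblasts, many enhancers are bound by AP-1, a dimer of FOS and JUN proteins.

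The labelled cell type was checked at promoters, taken as the 2 kb before and after each annotated start of transcription. Of 9 fibroblast markers, 8 had an H3K27ac peak at the promoter in the NanogWT arm, as did 12504 of all 21728 protein-coding genes, and the 8 included Col1a1, Col1a2, Thy1, Twist1 and Vim. None of 7 markers of pluripotent cells had H3K27ac there. The same held for all 4 haematopoietic, all 4 endothelial and all 4 epithelial markers, while 1 of 4 neuronal markers, Snap25, had it. These few markers do not go against the label. Because the lists come from bulk cells, strong signal in few cells and weak signal in many cells cannot be told apart.

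The sequences below show, for the highest-scoring distal regions of each class, the 50 bp either side of the summit. They are given on the plus strand of mm10, with matches to the motifs described further on in capitals. The first 3 were joint and were centred on the FLAG summit, which reached 44, 80 and 51 tags, with BRG1 summits of 47, 41 and 46 tags in the same regions. The summit height is the number of tags piled up at the peak's highest point. None of these windows held a match to a searched motif.
Joint, chrX:75674246-75674346: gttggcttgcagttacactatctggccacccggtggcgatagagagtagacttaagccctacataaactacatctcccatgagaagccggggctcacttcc
Joint, chr7:128672103-128672203: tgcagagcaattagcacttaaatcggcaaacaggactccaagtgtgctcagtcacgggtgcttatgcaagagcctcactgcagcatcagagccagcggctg
Joint, chr13:9239631-9239731: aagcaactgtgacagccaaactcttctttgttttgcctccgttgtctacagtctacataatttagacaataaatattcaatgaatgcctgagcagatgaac

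The next 2 were FLAG-only, with FLAG summits of 58 and 40 tags, and the second of them held an octamer, the motif of OCT factors. The 2 after them were BRG1-only, were centred on BRG1 summits of 19 and 23 tags, and held no match.
FLAG-only, chr10:84123267-84123367: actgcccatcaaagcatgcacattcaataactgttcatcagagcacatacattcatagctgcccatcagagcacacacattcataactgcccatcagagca
FLAG-only, chr8:56172103-56172203: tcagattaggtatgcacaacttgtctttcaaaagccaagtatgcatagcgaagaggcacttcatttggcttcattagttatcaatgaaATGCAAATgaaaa
BRG1-only, chr8:107255008-107255108: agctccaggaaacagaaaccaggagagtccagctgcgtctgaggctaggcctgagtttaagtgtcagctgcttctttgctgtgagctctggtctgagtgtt
BRG1-only, chr17:84148872-84148972: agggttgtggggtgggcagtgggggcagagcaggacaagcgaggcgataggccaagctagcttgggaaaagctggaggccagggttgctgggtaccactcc

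Another 4 windows were picked after the motif shares were seen, because they show the motif difference described below. They are the highest-scoring distal regions of their class with the whole motif within 25 bp of the FLAG summit. Both joint windows held AP-1 matches and lay in introns of Agfg2 and Oxr1, with FLAG summits of 30 and 38 tags and BRG1 summits of 32 and 23 tags that were only 1 and 5 bp away. Both FLAG-only windows held the core of the NANOG homeodomain motif and had FLAG summits of 37 and 34 tags. They lay nearest to the start sites of Epsti1 and Plod2, 30.1 and 696 kb away, and each overlapped a BRG1 peak of the NanogBiD list. So did the regions of both joint windows and the leading distal FLAG-only regions named further on.
Joint with AP-1, chr5:137671966-137672066: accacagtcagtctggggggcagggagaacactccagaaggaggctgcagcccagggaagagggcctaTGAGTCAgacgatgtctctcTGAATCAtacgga
Joint with AP-1, chr15:41612350-41612450: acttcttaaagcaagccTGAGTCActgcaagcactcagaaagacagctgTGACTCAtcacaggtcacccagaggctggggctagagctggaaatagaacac
FLAG-only with NANOG core, chr14:77934483-77934583: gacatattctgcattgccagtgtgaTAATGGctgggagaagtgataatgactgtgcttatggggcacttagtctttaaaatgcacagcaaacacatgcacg
FLAG-only with NANOG core, chr9:93297409-93297509: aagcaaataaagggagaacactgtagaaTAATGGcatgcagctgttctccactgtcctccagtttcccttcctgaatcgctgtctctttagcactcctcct

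The overlap was lopsided. Of regions with a BRG1 peak, 84.2% (95% Wilson interval 83.8 to 84.6) also had a FLAG peak, whereas 43.8% (43.4 to 44.2) of regions with a FLAG peak had BRG1. The shares depend on the lengths of the lists. When the FLAG list was limited to its best 30859 peaks, as many as the BRG1 list holds, the shares became 63.3% and 62.7%. On chromosomes 1 to 19 and X, the joint share of FLAG regions ran from 38.7% on X to 49.4% on chromosome 7. The joint share of BRG1 regions was 82.3% on both of the lowest chromosomes, 11 and 15, and 86.8% on chromosome 16.

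The classes differed in where they lay. Joint regions touched a promoter in 47.0% of cases, BRG1-only regions in 36.4% and FLAG-only regions in 14.4%. The joint share exceeded the FLAG-only share by 32.6 percentage points (Newcombe 95% interval 31.9 to 33.3), and the BRG1-only share exceeded it by 21.9 (20.5 to 23.3). The BRG1-only difference depended on the peak threshold and was 43.3 with scores of at least 100, 43.7 with the best 20000 peaks of each list and 44.6 with summits of at least 15 tags. Joint regions were longer, with a median of 1386 bp against 773 bp for FLAG-only and 698 bp for BRG1-only regions, and a longer region touches more features by its length alone. Counted by the summit point instead, 44.5% of joint, 34.1% of BRG1-only and 12.4% of FLAG-only regions lay in promoters, so the order was the same. FLAG-only summits lay mostly in introns (45.6%) and between genes (39.5%). Their median distance to the nearest protein-coding start site was 36.1 kb, against 7.47 kb for joint and 9.62 kb for BRG1-only regions, and 28.7% were more than 100 kb away. For joint regions that last share was 12.6% and for BRG1-only regions 8.61%.

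Single-target regions also differed in how far they lay from the other protein. The nearest BRG1 peak was a median of 23.6 kb from a FLAG-only region (quartiles 9.49 and 60.5 kb). The nearest FLAG peak was a median of 8.64 kb from a BRG1-only region (quartiles 3.62 and 18.1 kb). A called peak of the other target lay within 0.5 kb of 1.71% of FLAG-only and 5.37% of BRG1-only regions. Peaks that overlapped or touched had already been merged into joint regions, so these low shares are partly set by the class rule. Peaks below the caller's threshold are not in the lists. The FLAG list is the longer of the pair, and the part of list length in these distances was not tested.

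Joint regions had the higher summits of both proteins. The FLAG summit had a median of 19 tags (quartiles 14 and 26) in joint regions and 12 tags (10 and 15) in FLAG-only regions, a ratio of 1.58. The BRG1 summit had a median of 14 tags (10 and 19) in joint regions and 10 (9 and 12) in BRG1-only regions, a ratio of 1.4. Location mattered for BRG1 but hardly for NANOG within the joint class. BRG1 summits there had a median of 17 tags at promoters and 12 at distal regions, whereas FLAG summits had medians of 18 and 19. Across joint regions the 2 heights had a Spearman correlation of 0.631 at 12093 promoter regions and 0.411 at 13633 distal regions. These are descriptions across regions, which share libraries and open chromatin and are not replicates.

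The share of FLAG regions that were joint climbed with the FLAG summit, and at every height promoters were ahead. Among distal FLAG regions, 9.23% (8.58 to 9.93) were joint at 6 to 9 tags, 29.2% (27.9 to 30.6) at 14 to 15 tags and 85.5% (84.2 to 86.8) at 31 to 92 tags. At promoters the shares were 35.8% (33.5 to 38.1), 70.2% (68.1 to 72.3) and 95.9% (94.8 to 96.7). A promoter with a FLAG summit of 14 to 15 tags was thus joint more often than a distal region of 23 to 30 tags, at 65.1% (63.7 to 66.5). Seen from BRG1, location made less difference. At BRG1 summits of 6 to 9 tags, 70.3% (69.0 to 71.6) of distal and 62.4% (59.9 to 64.8) of promoter regions had a FLAG peak, and at 23 to 30 tags the shares were 98.1% and 98.9%. All 150 distal regions with a BRG1 summit of 31 tags or more had a FLAG peak, where the interval reached down to 97.5%. A class depends on whether a weak peak passed the caller's threshold, so a FLAG-only region is one where BRG1 was not called, which is not the same as BRG1 being absent.

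**Figure D1:**
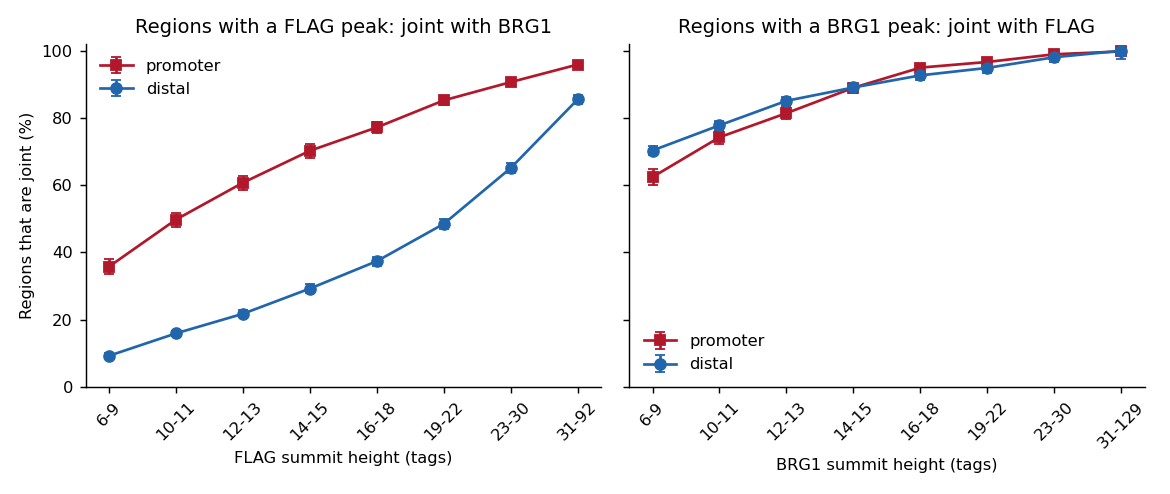
Share of regions that were joint (%, vertical axis) against summit height in tags (horizontal axis, 8 height classes) for regions with a FLAG peak (left) and with a BRG1 peak (right). Squares are promoter regions, circles are distal regions and bars are 95% Wilson intervals; on the left, promoters lie above distal regions in every height class, from 35.8% against 9.23% to 95.9% against 85.5%.

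Within joint regions the summits of NANOG and BRG1 lay close together. Overlapping peaks define the class and the nearest BRG1 summit was taken, so short distances are partly set by these rules. No expected distance was computed. The highest FLAG summit was a median of 101 bp (quartiles 34 and 215) from the nearest BRG1 summit, less than the length of DNA wrapped by a nucleosome. The distance was within 50 bp in 32.4% of joint regions, within 100 bp in 49.9% and within 250 bp in 80.5%. When windows of 100 bp either side of the summits were used in place of the peaks, which admits only close summits, the median was 60 bp. Promoter regions (median 95 bp) and distal regions (median 106 bp) were much alike. The spacing tightened with the BRG1 summit, from a median of 124 bp at 6 to 9 tags to 68 bp at 23 to 129 tags. A summit with more tags is also placed more exactly, and its part in this was not tested. At 9646 joint regions with a FLAG summit within 1 kb of a protein-coding start site, the FLAG summit lay a median of 12 bp upstream of the start (quartiles -133 and 76) and the BRG1 summit 5 bp downstream (-162 and 122). The order along the gene was therefore not fixed, and BRG1 lay upstream of FLAG in 46.6% of them.

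**Figure D2:**
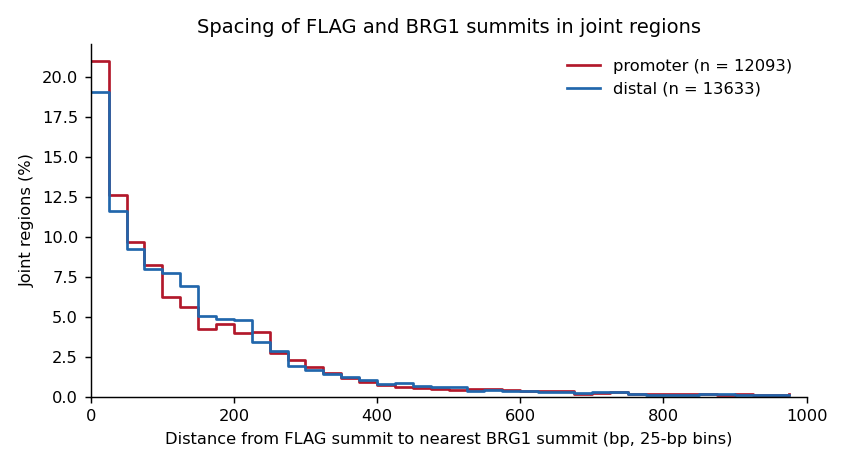
Share of joint regions (%, vertical axis, in 25-bp bins) against the distance from the FLAG summit to the nearest BRG1 summit (bp, horizontal axis), with promoter and distal regions as separate lines. Both lines are highest at the shortest distances and run close together, with medians of 95 and 106 bp.

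The classes also differed in histone marks. An H3K27ac peak of the same arm overlapped 84.4% (84.0 to 84.8) of joint regions, 40.8% (39.4 to 42.2) of BRG1-only regions and 20.9% (20.5 to 21.4) of FLAG-only regions. The joint share exceeded the FLAG-only share by 63.5 percentage points (62.8 to 64.1), and the BRG1-only share exceeded it by 19.9 (18.4 to 21.4). With scores of at least 100 the BRG1-only difference was 37.6, with the best 20000 peaks of each list 38.4, and with windows of 100 bp either side of the summits 35.3. The order was the same at distal regions alone, where the shares were 76.5%, 31.4% and 18.7%. It was also the same at the summit point, where length plays no part, with 82.6%, 39.6% and 18.8% over all regions. The mark was also more frequent at higher FLAG summits. Among distal regions with FLAG summits of 6 to 9 tags, 47.4% of 652 joint and 9.62% of 6413 FLAG-only regions had H3K27ac, and at 31 to 92 tags 90.6% of 2472 joint and 36.6% of 418 FLAG-only regions had it. Where an H3K27ac summit lay in the region, its median height was 16 tags at distal joint and 12 tags at distal FLAG-only regions.

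H3K4me1 followed the same order with smaller gaps, at 83.8% of joint, 63.0% of BRG1-only and 48.1% of FLAG-only regions. The joint share was 35.7 percentage points (34.9 to 36.4) above the FLAG-only share, and 23 or 22.1 points above it with the best 20000 peaks of each list or with summits of at least 15 tags. The pair of marks gave each class its own profile. Both marks were present at 72.8% of joint, 31.9% of BRG1-only and 14.8% of FLAG-only regions. H3K4me1 without H3K27ac was found at 33.3% of FLAG-only and 31.1% of BRG1-only regions but at 11.0% of joint regions. Neither mark was called at 45.8% of FLAG-only, 28.1% of BRG1-only and 4.60% of joint regions.

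**Figure D3:**
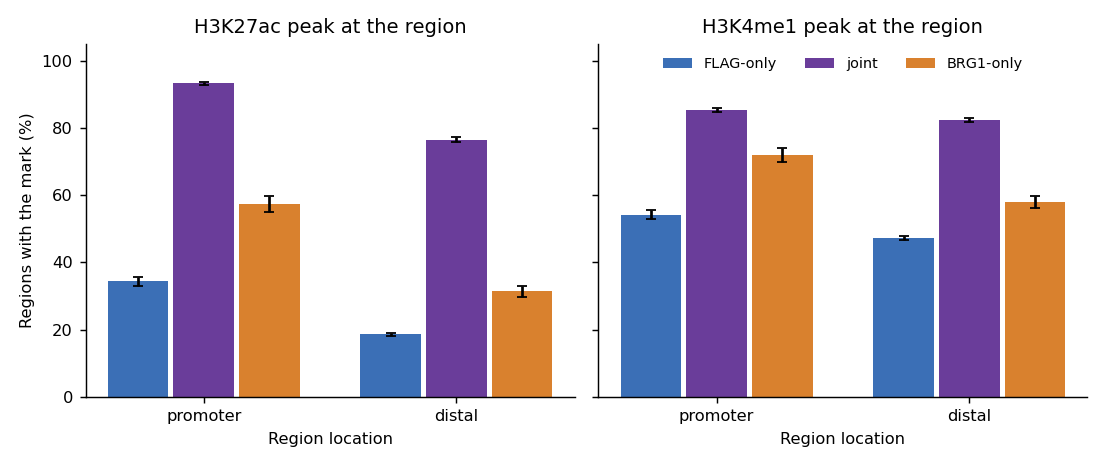
Share of regions with a peak of H3K27ac (left) or H3K4me1 (right) in the NanogWT arm (%, vertical axis), for promoter and distal regions (horizontal axis). Bars are coloured by class and whiskers are 95% Wilson intervals; joint regions are highest and FLAG-only regions lowest in every group, and the gap is wider for H3K27ac (76.5% against 18.7% at distal regions) than for H3K4me1.

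Base composition set the classes apart too. In the 501 bp around the summit, distal FLAG-only regions had a median GC content of 42.7%, distal joint regions 45.3% and distal BRG1-only regions 49.3%. At promoters the medians were 45.7%, 60.7% and 57.4%. A CpG frequency above 0.6 of that expected from base content, a common mark of CpG islands, was found at 64.5% of joint promoter regions, 41.1% of BRG1-only and 12.5% of FLAG-only ones. These values describe the sequence around the summit, which in FLAG-only promoter regions can lie away from the start site. More than 50% of the bases within 50 bp of the summit were masked as repeats in the reference at 9.09% of distal FLAG-only, 6.91% of distal joint and 10.1% of distal BRG1-only regions.

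Motifs were then counted in the 101-bp windows centred on summits, on both strands, for 13 factors or families. The strings were TGANTCA for AP-1, TAATGG for the NANOG homeodomain, ATGCAAAT for OCT, ACAATGG for SOX, TGTGGTT for RUNX, GGAATG for TEAD, GGGCGG for SP/KLF, CCAAT for NFY, CCGGAAG for ETS, GCGCATGCG for NRF1, AAGATGGC for YY1, TGACGTCA for CREB, and a longer CTCF consensus. None of the short strings lies within another. In windows of the same length at 93145 protein-coding start sites, 1.96% held AP-1, 0.310% OCT, 0.933% SOX, 4.06% TEAD, 1.51% RUNX, 20.3% SP/KLF, 11.3% NFY and 5.29% ETS. The NANOG core was in 2.02% of them, YY1 in 2.06%, CREB in 0.816%, NRF1 in 0.745% and CTCF in 0.0998%. A match is a description of letters and does not show binding.

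AP-1 and the NANOG core differed in opposite directions between distal joint and distal FLAG-only regions. AP-1 was found at the FLAG summit of 12.6% (12.1 to 13.2) of distal joint and 8.5% (8.18 to 8.83) of distal FLAG-only regions, against 2.78% and 3.18% in windows 1 kb away. The NANOG core was found at 4.98% (4.62 to 5.35) of distal joint and 6.27% (5.99 to 6.56) of distal FLAG-only regions, against 3.83% and 4.30% away from the summit. SOX behaved like the NANOG core, with 1.82% and 2.59%, whereas OCT gave 2.06% and 2.14% and TEAD 8.09% and 8.23%. BRG1-only regions had few pluripotency motifs. At their distal summits OCT stood at 0.425% (0.249 to 0.727) against 0.491% 1 kb away, and the NANOG core at 2.19% against 3.86%. AP-1 was present at 9.46% (8.47 to 10.6) of them. At promoters the AP-1 difference had the opposite direction, with 3.23% (2.93 to 3.56) of joint and 5.88% (5.25 to 6.59) of FLAG-only regions. Over promoter and distal regions together the AP-1 shares were 8.22% for joint and 8.12% for FLAG-only regions. SP/KLF was the most frequent of the searched motifs at joint promoters, at the FLAG summit of 25.9% against 3.67% 1 kb away, and at BRG1-only promoters, at the BRG1 summit of 15.2% against 4.05%. At FLAG-only promoters SP/KLF was found at 5.17% of FLAG summits against 2.4% in windows 1 kb away, AP-1 at 5.88% against 2.21% and TEAD at 7.46% against 4.94%. The short CCAAT string of NFY was found at 12.2% there, which was not above the 13.1% found 1 kb away.

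Since joint regions had higher FLAG summits, the joint share of distal FLAG regions was compared with and without a motif inside 8 height classes. Regions with AP-1 were joint more often in 8 of 8 classes, and the intervals stood apart in 7. At 16 to 18 tags, 51.1% (46.7 to 55.6) of 485 regions with AP-1 and 35.8% (34.4 to 37.3) of 4305 without it were joint. Regions with the NANOG core were joint less often in 8 of 8 classes, with intervals apart in 7. At 16 to 18 tags the shares were 23.1% (18.6 to 28.4) of 281 with the core and 38.3% (36.9 to 39.7) of 4509 without it. SOX was lower in 8 of 8 classes, with intervals apart in 5, and OCT in 8 of 8 with intervals apart in 2. RUNX was lower in 8 of 8 and TEAD in 6 of 8, with intervals apart in none. SP/KLF was higher in 8 of 8 with intervals apart in 7. The distal classes also differ in GC content, the NANOG core is rich in A and T, and the part of base composition in these shares was not tested.

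**Figure D4:**
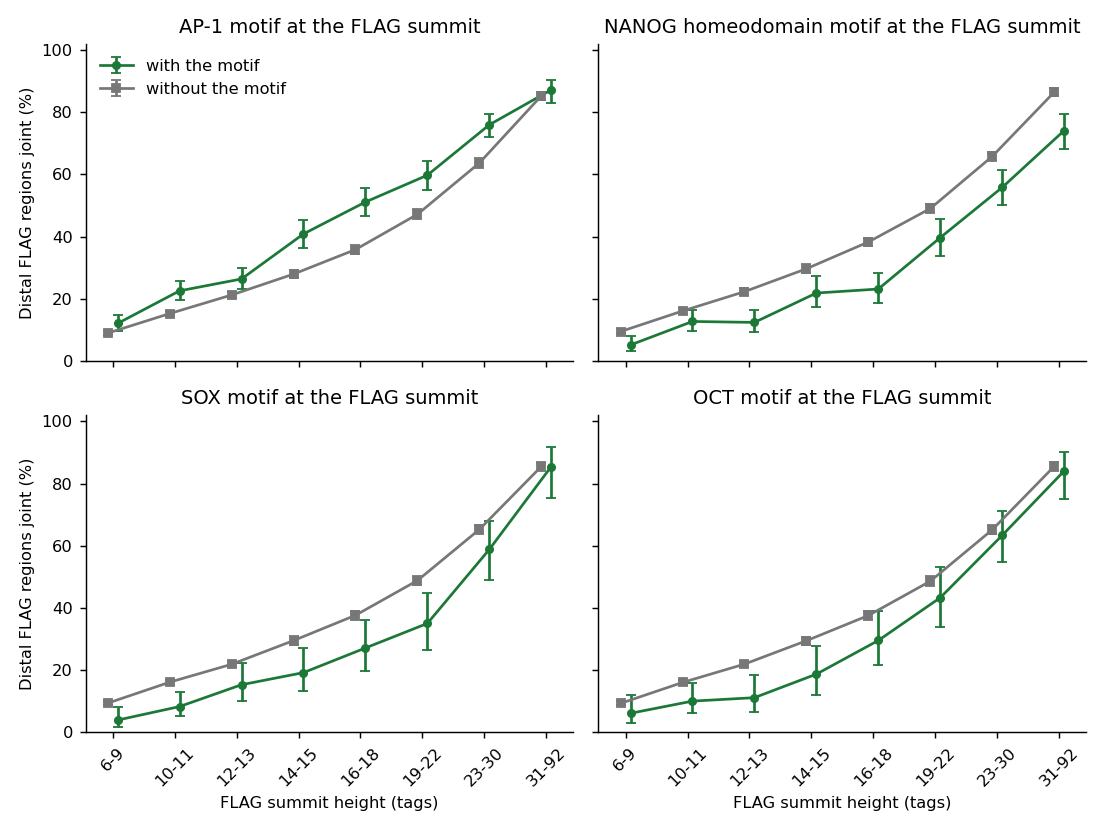
Share of distal FLAG regions that were joint (%, vertical axis) against FLAG summit height in tags (horizontal axis, 8 height classes), with and without a motif within 50 bp of the FLAG summit, for AP-1, the NANOG core, SOX and OCT; bars are 95% Wilson intervals. Regions with AP-1 lie above those without it (51.1% against 35.8% at 16 to 18 tags), and regions with the NANOG core lie below (23.1% against 38.3%).

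Where the 2 summits of a joint region were over 100 bp apart, the motif could be assigned to one of them. Among 7092 such distal regions, AP-1 lay at the FLAG summit alone in 831, at the BRG1 summit alone in 492 and at both in 59. The NANOG core lay at the FLAG summit alone in 378 and at the BRG1 summit alone in 248, and OCT in 142 and 75. SOX and TEAD were split more evenly, at 121 and 104 and at 492 and 446. The CCAAT box of NFY did not lean to either side, at 751 and 762. At 5850 promoter regions of this kind, the CCAAT box lay at the FLAG summit alone in 785 and at the BRG1 summit alone in 442. Over all distal joint regions the median summit was 19 tags for FLAG and 12 for BRG1. A summit with more tags is placed more exactly, and its part in these splits was not tested.

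At the level of genes, 10838 of 21728 protein-coding genes (49.9%) had a joint region at a promoter. A further 1145 (5.27%) had FLAG-only and 856 (3.94%) BRG1-only regions there, 148 had separate regions of each kind, and 8741 had none. Genes with a joint promoter nearly all carried H3K27ac at the promoter (97.2%), against 66.0% of BRG1-only, 53.5% of FLAG-only and 7.85% of the genes with no region. H3K4me1 without H3K27ac was found at 34.0% of FLAG-only and 28.0% of BRG1-only promoters and at 2.44% of joint promoters.

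Against the 49.9% of all genes with a joint promoter, the lists for the Hippo pathway, ribosomal proteins, BAF subunits, matrix genes and AP-1 factors had larger joint shares. All 15 listed genes of the TEAD and Hippo pathway had joint promoters, including the target genes Ccn1 (FLAG 47 tags, BRG1 22) and Ccn2 (28 and 30), and the coactivators Yap1 (16 and 17) and Wwtr1 (33 and 29). Of 83 ribosomal protein genes, 76 were joint (91.6%). Of 26 genes for BAF subunits, 22 were joint. Smarca4, which encodes BRG1 itself, had a highest FLAG summit of 46 tags and a highest BRG1 summit of 39 over its 2 promoter regions. Heights of the listed genes, here and below, are the highest over all promoter regions of the gene. Where a gene has several regions, the heights of the proteins can come from different ones. The subunit genes Smarcc2, Actl6b and Smarcd3 were BRG1-only, and Dpf1 had no region. Of 11 genes for AP-1 factors, 8 were joint, among them Jun (46 and 45 tags), Fos (28 and 33) and Fosl2 (31 and 44), Fosl1 was BRG1-only with 11 tags, and Batf and Batf3 had none. With scores of at least 100 in both lists, 5 of the 11 were joint.

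Of 20 matrix genes of fibroblasts, 16 (80%) were joint, such as Fn1, which encodes fibronectin (27 and 23 tags), Thbs1 (31 and 25) and Col1a1 (21 and 22). The proteoglycan genes Dcn (15 tags) and Lum (9 tags) were FLAG-only, Eln, which encodes elastin, was BRG1-only with 10 tags, and Col3a1 had no region although its promoter carried both marks. Mesenchymal transcription factors were near the share of all genes, with 8 of 18 joint (44.4%), 3 FLAG-only, 2 BRG1-only and 5 without a region. Twist1 (31 and 27 tags), Snai2 (26 and 16) and Runx1 (29 and 17) were joint. Prrx1 was FLAG-only with 27 tags and had H3K4me1 without H3K27ac, and Zeb2 and Meox2 were FLAG-only with 21 and 13 tags. Snai1 and Twist2 were BRG1-only with 10 and 14 tags. With peaks of a score of at least 100 in both lists, the joint counts were 49 for ribosomal proteins, 7 for matrix genes and 4 for mesenchymal factors, against 8294 of all 21728 genes. At that threshold matrix genes and mesenchymal factors did not exceed the share of all genes.

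Both lists of pluripotency genes had smaller joint shares than the 49.9% of all genes. Of 16 transcription factor genes, 4 were joint, and these were Klf2 (20 and 23 tags), Klf4 (25 and 23), Klf5 (34 and 17) and Tbx3 (41 and 27), which are also active outside pluripotent cells. Sox2 (10 tags) and Nr5a2 (14 tags) were FLAG-only and carried H3K4me1 without H3K27ac, and Tfcp2l1 was BRG1-only with 8 tags. The other 9 had no region of either protein at a promoter, and they included Nanog, Pou5f1, Esrrb, Sall4 and Zfp42. Among distal regions, Nanog was the nearest coding gene of 3 distal joint regions and 1 FLAG-only region, and Sox2 of 3 and 9. The cells also carried an introduced Nanog coding sequence, and its part in the peaks counted at Nanog was not tested. Of 12 other pluripotency genes, Tet1 (23 and 14 tags) and Dnmt3l (17 and 19) were joint and Tdgf1 (19 tags), Dppa3 (13) and L1td1 (12) were FLAG-only. Lin28b was BRG1-only with 10 tags, and the remaining 6 had no region. The FLAG-only shares of both lists, 12.5% and 25%, were above the 5.27% of all genes but rest on 2 and 3 genes. With a score of at least 100 in both lists, none of the 16 transcription factor genes was FLAG-only and 1 of these 12 genes was.

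Hox genes often had FLAG-only promoters, at 14 of 39 (35.9%) against 5.27% of all genes. They were Hoxa10, Hoxa11, Hoxb2 to Hoxb8, Hoxc4, Hoxc11 and Hoxd11 to Hoxd13, with FLAG summits of 14 to 27 tags. A further 12 Hox genes were joint, or 3 with scores of at least 100 in both lists. Hoxa5 had a FLAG summit of 56 tags beside a BRG1 summit of 17, and Hoxc6 had 38 and 23. Hoxa7 and Hoxd9 were BRG1-only and 11 had no region. Neighbouring Hox promoters lie within a few kb and can share a region, so these genes are not independent counts. Of 16 epithelial genes, 4 were joint (Crb3, Cldn6, Cldn3 and Krt8), Grhl2 was FLAG-only, Dsp was BRG1-only and 10, including Cdh1 and Epcam, had no region, so the joint share was below the 49.9% of all genes. With scores of at least 100 in both lists, 2 of the 16 were joint. Among 1092 olfactory receptor genes, which are silent in fibroblasts, 5 were joint and 16 FLAG-only, below the 49.9% and 5.27% of all genes, and 2 were joint with scores of at least 100.

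Regions were ranked for naming without chromosome 18. Among the rest, the 5 joint promoter regions with the highest scores belonged to Zbtb20, Ppp2r3d, Nr1d2, Garnl3 and Sp1. Zbtb20, which encodes a zinc finger repressor, had a FLAG summit of 78 tags and a BRG1 summit of 67, 72 bp apart (chr16:42874418-42877010). Nr1d2, a circadian nuclear receptor gene, had 48 and 45 tags, 18 bp apart, and Sp1, which encodes a factor that binds GC boxes, had 48 and 48 tags, 282 bp apart. Garnl3 had 53 and 55 tags. Ppp2r3d had 44 and 42 tags, but its summits lay 1356 bp apart. All 5 carried both marks.

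The leading FLAG-only promoter regions were those of Nme7 (49 tags), Il1rn, which encodes the interleukin-1 receptor antagonist (34), 9530053A07Rik (29), Ncoa1, a nuclear receptor coactivator gene (35), and Dnajc21 (32). The Nme7 region lay at chr1:164346815-164348041. For the first 3 the FLAG summit lay 2.05 to 2.15 kb from the start site, at the edge of the promoter window, and those regions had H3K4me1 without H3K27ac. The leading BRG1-only promoter regions had lower summits and lay nearer to the start, at Slc35f4 (19 tags), Fgf12 (17), Unc80 (21), Gm20715 (23) and Amer3 (17), all within 0.425 kb. Fgf12 encodes an intracellular FGF that acts on sodium channels and Unc80 a part of a sodium leak channel. All 5 of these promoters had H3K4me1 and no H3K27ac.

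Distal regions were named by the nearest protein-coding start site, which need not be the gene they act on. The 5 leading joint regions lay nearest to Rab39b (96.1 kb), Inpp5f (in its intron, 4.46 kb), Dip2c (36.8 kb), Irf2bpl (60.4 kb) and Rps6ka1 (23 kb). They spanned chrX:75673507-75674712, chr7:128670990-128673814, chr13:9238860-9240843, chr12:86822890-86825802 and chr4:133910100-133911503. All 5 carried both marks. The leading FLAG-only regions lay nearest to Nuak1 (269 kb), Hpgd (122 kb), Gm9008 (698 kb), Slc35f1 (in its intron, 89.6 kb) and Foxo6 (45.6 kb), with FLAG summits of 58, 40, 35, 42 and 39 tags. They spanned chr10:84122006-84124291, chr8:56171125-56172678, chr6:75799119-75801035, chr10:52779431-52781297 and chr4:120331556-120333975. All 5 carried H3K4me1, and those near Hpgd and Slc35f1 carried H3K27ac. The leading BRG1-only regions lay nearest to Nfat5 (38.4 kb), Zfp36l2 (39 kb), Apobec3 (8.04 kb), Twf1 (18 kb) and Gm11084 (51.1 kb), with BRG1 summits of 10 to 23 tags. They spanned chr8:107254350-107255631, chr17:84148497-84149645, chr15:79882602-79883875, chr15:94607655-94608517 and chr2:73037389-73038930, and 4 of the 5, all but the one near Twf1, carried both marks.

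Over all genes, 28.8% were the nearest coding gene of at least 1 distal joint region and 37.3% of at least 1 distal FLAG-only region. A gene's count also grows with the space around it. Rbfox1, a very long splicing factor gene, was nearest to 23 distal joint and 51 FLAG-only regions with no region at its promoter. Auts2 was nearest to 15 and 48. All 9 fibroblast markers were nearest to a distal joint region, and joint regions made up 53.5% of the distal FLAG regions nearest to these 9 genes, against 32.6% over all genes. This was not particular to fibroblast genes. All 4 epithelial markers were likewise nearest to a distal joint region, with a joint share of 71.4% over 5 joint and 2 FLAG-only regions, and the shares were 57.9% for the 16 epithelial genes, 50% for the 4 neuronal markers and 39.4% for the 20 matrix genes. Below the share of all genes were the haematopoietic markers with 13.3% and the endothelial markers with 22.7%, the latter over 5 joint and 17 FLAG-only regions. The haematopoietic share rests on 2 joint and 13 FLAG-only regions, all nearest to Ptprc. The pluripotent cell markers, with 30% over 6 joint and 14 FLAG-only regions, were near the share of all genes. So were the 16 pluripotency transcription factor genes with 31.3% and the 18 mesenchymal factor genes with 31.5%.

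The same regions were looked up in the NanogBiD lists, which were longer, with 74782 FLAG and 53748 BRG1 peaks. The study lists more read pairs for both of these libraries than for their NanogWT counterparts, so depth and arm cannot be told apart. Joint regions were mostly kept, with 85.8% (85.3 to 86.2) overlapping peaks of both proteins and 5.63% of neither. Of FLAG-only regions, 43.7% (43.2 to 44.2) had both proteins, 20.9% had FLAG without BRG1 and 32.4% had neither. BRG1-only regions were the least repeated, as 46.4% (45 to 47.8) had neither protein. Their BRG1 summits in NanogWT had a median of 9 tags in that subset, against 11 where NanogBiD had both proteins. Over all FLAG-only regions, an H3K27ac peak was found in 20.93% of cases in NanogWT and in 31.21% in NanogBiD. The FLAG-only regions with both proteins in NanogBiD had it in 24.7% and 52.7%. Those with FLAG without BRG1 had it in 16.98% and 20.55%. Those with BRG1 without FLAG had it in 34.43% and 33.33%, and those with neither in 17.2% and 8.91%. The H3K27ac list of NanogBiD was also longer, with 42598 peaks against 35452. The part of this list length in these shares was not tested.

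BRG1 peaks of NanogBiD were more frequent at FLAG-only summits with some motifs. Distal FLAG-only regions with the NANOG core had a BRG1 peak in NanogBiD in 56.9% (54.6 to 59.2) of 1767 cases, against 45.7% (45.1 to 46.3) of 26434 without it. With OCT the share was 57.6% (53.6 to 61.5) of 604 and with AP-1 55.6% (53.6 to 57.6) of 2398, against 46.2% and 45.6% without. For SOX the intervals overlapped, at 48.3% (44.7 to 51.9) and 46.4% (45.8 to 47.0). In the NanogWT arm itself, H3K27ac at distal FLAG-only regions was 16% (14.4 to 17.8) with the NANOG core and 18.9% (18.4 to 19.3) without it. The intervals overlapped for OCT (20.03% and 18.6%), AP-1 (17.7% and 18.8%) and SOX (16.9% and 18.7%). These shares were not matched on summit height.

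**Figure D5:**
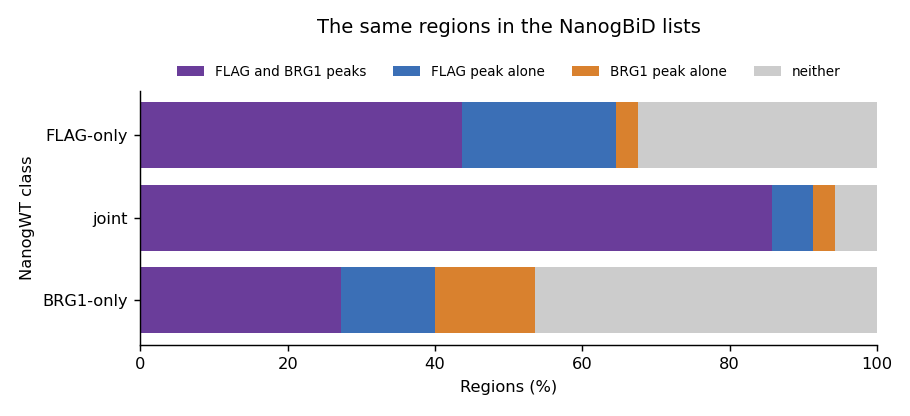
Share of NanogWT FLAG-only, joint and BRG1-only regions (rows) that overlap peaks of the NanogBiD lists (%, horizontal axis), split into regions with both FLAG and BRG1 peaks, a FLAG peak alone, a BRG1 peak alone or neither. Both proteins were found in NanogBiD at 85.8% of joint, 43.7% of FLAG-only and 27.2% of BRG1-only regions.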

How the data were processed

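Per the submitters' processing notes, the authors used Trim Galore 0.6.4, Bowtie2 2.4.5, SAMtools 1.16.1 and MACS 1.4.2 on the genome build mm10. Per the study's methods, replicates were merged before peak calling and duplicates were reduced to 1 tag, whereas its reporting summary describes the CUT&Tag experiment as performed once. A general entry of the same summary states that all experiments were replicated. No control library is named. The labels and the methods name different CUT&Tag kits and cell numbers. The deposited peak lists hold the caller's score (lowest value 50), and the deposited summit lists hold the signal, a tag pileup at the summit that the authors did not scale to depth. The lists hold no depth. The study's summary gives read pairs per library, lowest for NanogWT FLAG and higher for FLAG and BRG1 in NanogBiD than in NanogWT, and no value here was scaled to them.

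Here, peaks and summits were joined by name, and peaks of both lists were merged where they overlapped or touched. Overlap with marks or promoters needed 1 bp. Start sites came from GENCODE vM21, sequence and repeat masking from the RefSeq GRCm38.p6 assembly. Shares have Wilson and differences Newcombe 95% intervals, and no test was run, as each group has 1 library. Distances use the highest FLAG summit of a region. Scripts used Python 3.11.15, numpy 2.4.6, pandas 2.3.3, scipy 1.17.1 and matplotlib 3.10.9, and were tested on simulated peaks.

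Named regions were the 5 with the highest score per class at coding promoters and at distal sites, leaving out chromosome 18, and for joint regions the lower of both scores was used. Listed genes were named where a promoter held a class, or as examples without one. The classes, gene lists and motifs were chosen with earlier results of these data known. Alternatives covered score and height minimums, list length, chromosomes, overlap rule, merging, promoter width and motif window.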

Additional observations from a re-analysis of the deposited data

How the results depend on the processing

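No paired analysis was possible because each target had 1 library per arm. Recomputing the 10 compared values under the alternatives gave 76 values. No difference changed sign and no height ratio fell to 1 or below. In all, 53 values lay outside the 95% interval of the value reported or, for the height ratios, whose medians in whole tags gave no interval, differed from it. The cause was not tested. They are listed as shares of FLAG and of BRG1 regions that are joint (43.8% and 84.2%), then, in percentage points above FLAG-only, the promoter share of BRG1-only (21.9) and joint regions (32.6), H3K27ac of joint (63.5) and BRG1-only (19.9) regions and H3K4me1 of joint regions (35.7), then the median summit distance (101 bp) and the height ratios for FLAG (1.58) and BRG1 (1.4).

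With scores of at least 100 they were 38.3%, 89.0%, 43.3, 43.3, 54.3, 37.6, 26.5, 95 bp, 1.38 and 1.21. With the FLAG list limited to the BRG1 list's length they were 62.7%, 63.3%, 28.8, 35.3, 59.97, 29.3, 28.7 and, for the ratios, 1.38 and 1.36. With the lists cut to their best 20000 peaks each, they were 60.5%, 60.7%, 43.7, 40.2, 51.1, 38.4, 23, 96 bp, 1.25 and 1.21. With summits of at least 15 tags they were 35.4%, 82.5%, 44.6, 45.6, 43.9, 29.8, 22.1, 81 bp, 1.26 and 1.18. With windows of 100 bp either side of the summits they were 31.8% and 60.7%, 26.5 for the joint promoter share, 52.8, 35.3, 31.6, 60 bp, 1.46 and 1.27, and such windows can only be joint when the summits are close. Merging across gaps of up to 500 bp gave 44.7% and 85.1%. Reciprocal overlap of at least 50% gave 37.1% and 70.9%. Promoters of 1 kb gave 34.0 for joint regions. Restriction to chromosomes 1 to 19 and X moved none out of its interval.

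The AP-1 difference at FLAG summits (joint minus FLAG-only) was 0.0906 percentage points over all regions, 4.14 at distal regions and 0.306 with 25 bp either side. That of the NANOG core was -2.45, -1.29 and -1.17. For gene lists, 54 of 72 counts stayed within 1.5 times, and most of those that did not were at the score of at least 100, where FLAG-only counts can include genes whose BRG1 peak was dropped.

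Depth was unequal, with the NanogWT FLAG library the shallowest, and its part in the classes was not tested. Weak FLAG peaks decide between BRG1-only and joint, and weak BRG1 peaks between FLAG-only and joint. No control library was compared.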
